A study of Mus musculus with 8 samples.

Results

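The guanylate-binding proteins (GBPs) and the immunity-related GTPases (IRGs) were followed in peritoneal macrophages that lacked the proprotein convertase FURIN and in their wild type controls. The 10 genes were Gbp2, Gbp3, Gbp4, Gbp5, Gbp6, Gbp7, Gbp9, Irgm1, Igtp and Gm4841, all found among the 20886 named genes on the arrays. The family was chosen by its membership, with the 24 h KO/WT ratios of Gm4841 and Gbp4 already known from these arrays, and each gene was read from the probe with the highest mean intensity. For that reason the KO/WT ratios at 24 h are a description here, with no test.

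FURIN KO cells came from LysMCre-fur fl/fl mice and WT cells from their littermates, both on a C57BL/6 background. LysM drives Cre in myeloid cells and not in lymphocytes. The age of the mice used for the arrays was not given in the sources used here. Adherent cells of both genotypes were left unstimulated or received E. coli LPS at 1 μg/ml for 1, 4 or 24 h. On each of 8 Agilent 2-colour arrays, the KO sample was hybridised against the WT sample of that time, with 2 arrays labelled as biological replicates at each time point. KO RNA was in Cy5 on the arrays of replicate 1 and in Cy3 on those of replicate 2, so replicate number and dye orientation cannot be told apart. How many animals stand behind a replicate was not given in the sources used here, so the p-values measure the spread between these samples. Those given with the replicate number as a block leave out the difference between replicates that recurs over the time points.

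GBPs and IRGs are interferon-induced GTPases of cell-autonomous immunity. They gather on vacuoles that hold bacteria or parasites, help to break them open and feed bacterial products to the inflammasomes. LPS acts through Toll-like receptor 4, which induces interferon-β, and interferon-β signals back on the macrophage and acts on genes through the interferon-stimulated response element (ISRE). Interferon-γ, made by T and NK cells and in smaller amounts by other cells, acts on gamma-activated sites (GAS) and through IRF1 on ISRE-like motifs.

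Promoter sequences were looked up first, because interferons act on genes through elements such as the ISRE and GAS. RefSeq windows (build GRCm38.p6) were at hand for 6 of the 10 genes (Gbp2, Gbp3, Gbp5, Gbp7, Igtp and Irgm1), and the 250 bases before the transcription start were searched on both strands. The ISRE was searched as GAAANNGAAA, and all 6 genes held at least 1 match, against 3.46% of the 27025 genes in the table. A GAS motif, TTCNNNGAA, was present in 3 of the 6 (Gbp5, Gbp7 and Igtp), against 8.13% of all genes. A κB motif, GGGNNNNNCC, was present in Gbp5 alone, against 48.7% of all genes. The ISRE matches lay between 59 and 15 bases before the start in Gbp2, Gbp3, Gbp7, Igtp and Irgm1, and 165 to 156 bases before it in Gbp5. In Irgm1 and Gbp3 a pair of matches overlapped. A match is a description of the letters and not a shown binding site.

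The windows of Gbp5 (chr3:142496684-142496933, plus strand), Gbp2 (chr3:142620413-142620662, plus strand), Irgm1 (chr11:48871421-48871670, minus strand) and Igtp (chr11:58199306-58199555, plus strand) are shown, read 5′ to 3′ towards the gene, with the ISRE in capitals. They were picked after the values were seen, because in WT cells the first hour of LPS brought a large change in Gbp5 (log2 3.62), a smaller one in Gbp2 (0.64), a fall in Irgm1 (-0.95) and no call in Igtp (-0.15, adjusted p = 0.6683 by limma).
Gbp5: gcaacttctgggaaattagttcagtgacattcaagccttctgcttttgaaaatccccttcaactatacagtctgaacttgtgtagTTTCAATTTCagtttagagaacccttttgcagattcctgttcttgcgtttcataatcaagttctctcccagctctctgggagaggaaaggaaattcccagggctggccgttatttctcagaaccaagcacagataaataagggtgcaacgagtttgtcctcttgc
Gbp2: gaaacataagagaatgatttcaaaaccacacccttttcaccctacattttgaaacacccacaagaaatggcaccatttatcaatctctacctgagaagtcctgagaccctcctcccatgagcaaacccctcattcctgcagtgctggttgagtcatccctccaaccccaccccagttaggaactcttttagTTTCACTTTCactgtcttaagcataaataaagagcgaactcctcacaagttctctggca
Irgm1: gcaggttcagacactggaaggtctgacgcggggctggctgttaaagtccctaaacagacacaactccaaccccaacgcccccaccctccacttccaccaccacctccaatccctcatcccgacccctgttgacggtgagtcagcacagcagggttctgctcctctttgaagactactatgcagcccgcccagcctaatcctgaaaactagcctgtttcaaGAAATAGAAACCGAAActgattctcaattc
Igtp: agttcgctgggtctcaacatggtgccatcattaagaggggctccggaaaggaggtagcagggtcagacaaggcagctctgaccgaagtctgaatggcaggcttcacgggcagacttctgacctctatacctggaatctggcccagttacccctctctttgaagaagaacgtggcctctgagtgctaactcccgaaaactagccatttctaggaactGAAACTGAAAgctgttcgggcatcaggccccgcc

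The arrays measured the family well. Between 43.8% and 51.3% of gene spots per channel were well above background, and all 10 genes were so in all 16 channels except Gm4841, which was not well above background in WT cells at 1 h on both arrays. No member probe was saturated. Levels are log2 intensities, which order the samples for a gene but not one gene against another. The Furin log2 KO/WT ratio was between -0.85 and -0.55 on the 6 arrays of the other time points, but 0 and 0.33 on the 4 h arrays. The 4 h channels are therefore named KO and WT by their labels. The place of the Furin probe relative to the deleted part was not given in the sources used here. Lyz2, the gene whose locus carries the Cre, was lower in the KO channel on all 8 arrays (log2 KO/WT between -1.85 and -0.74), with -1.04 and -1.13 on the 4 h arrays (adjusted p = 0.0562 by limma, and 0.00186 with the replicate number as a block). Of 8 macrophage markers, 7 were measured and all 7 were above background in both genotypes before LPS and at 24 h. B cell markers (5 of 5 measured) and T cell markers (5 of 5) were also above background before LPS, so the RNA was not from macrophages alone. Fewer cells of a type and less RNA per cell cannot be told apart in these samples.

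Does LPS induce the family, and does it do so in the channels labelled FURIN KO? It did in both genotypes. At 4 h all 10 genes were higher than before LPS in WT channels and in those labelled KO, in which Furin was not lower. The median log2 changes were 4.19 and 3.83, where the median over all features was -0.0006 and 0.0016. For comparison, 15.5% of all 36927 features tested rose in WT cells at 4 h and 16.3% in KO cells (limma separate-channel analysis, Benjamini-Hochberg adjusted p under 0.05).

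Gbp5, a GBP that promotes activity of the NLRP3 inflammasome, rose most. In WT cells its log2 level was 9.29 and 9.43 before LPS, 13.07 and 12.88 after 1 h, 15.85 and 15.68 after 4 h, then 12.73 and 12.53 after 24 h. In KO cells it was 9.75 and 9.91 before LPS, 12.42 and 13.04 after 1 h, 16.04 and 15.88 after 4 h, then 13.47 and 13.94 after 24 h. The channels before and after LPS were far apart at every time, and the rise at 4 h was 84.7-fold in WT cells (log2 6.40, SE 0.19, adjusted p = 2.891e-11 by limma) and 70.1-fold in KO cells (log2 6.13, SE 0.19, adjusted p = 4.704e-11 by limma).

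Igtp, a regulatory IRG also known as Irgm3 that protects host membranes, followed with 31.2-fold in WT cells and 24.5-fold in KO cells at 4 h. Irgm1, another regulatory IRG, rose 19.5-fold and 17.1-fold. Among the GBPs of the Gbp2 cluster, which neighbours Gbp5, Gbp7 and Gbp3 on chromosome 3, Gbp2 rose 13.5-fold in WT and 11.8-fold in KO cells, Gbp3 20.4-fold in WT cells and by 3.80 on the log2 scale in KO cells, and Gbp7 17.1-fold and 13.3-fold. Of the other GBP cluster, Gbp4 rose 13.8-fold and 14.5-fold, Gbp6 22.8-fold and 24.0-fold, and Gbp9, the least induced of the 10, 8.59-fold and 8.19-fold. Gm4841, an interferon-inducible IRG, rose 13.2-fold and 10.2-fold, and with processed signals by 4.55 on the log2 scale in WT cells in place of 3.72. All of these rises passed the test, with standard errors between 0.13 and 0.27 on the log2 scale. The difference between genotypes in this rise was tested on the ratios, and none of the 10 genes was called (0% of all features were), with 2 of 10 at an unadjusted p under 0.05, against 2.9% of all features. The response of Gbp3 was smaller in KO cells by 0.54 on the log2 scale (SE 0.17, adjusted p = 0.9999 by limma), and that of Igtp by 0.35 (SE 0.15, adjusted p = 0.9999 by limma).

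**Figure D1:**
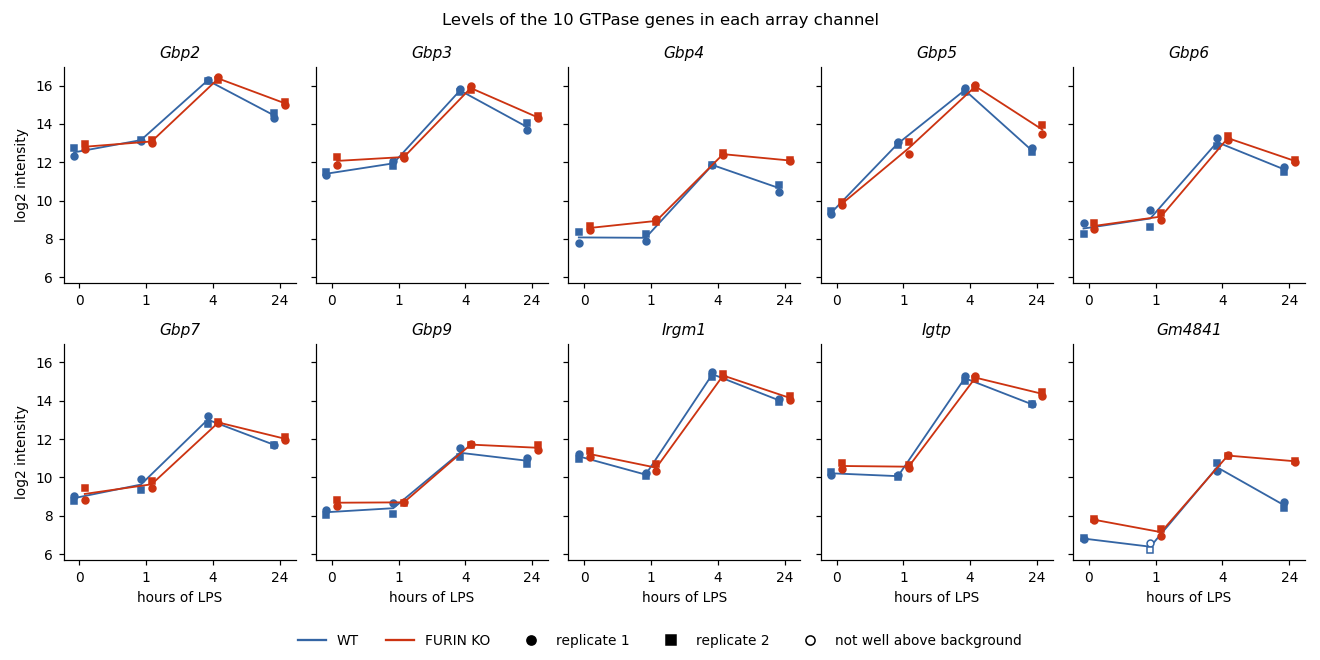
Log2 intensity of each of the 10 genes (vertical axis, shared) against hours of LPS (horizontal axis, evenly spaced) in WT (blue) and FURIN KO (red) channels. Circles and squares are replicates 1 and 2, open symbols are not well above background, and lines join the means of 2; every gene is highest at 4 h in both genotypes, and at 24 h the KO points of Gm4841 (10.82 and 10.87) lie above the WT points (8.71 and 8.39).

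At 1 h the family did not move as one. In WT cells 3 of 10 genes were higher and 1 was lower, where 3.37% of all features rose and 5.19% fell. In KO cells 1 gene was higher and 2 were lower, where 3.08% rose and 4.46% fell. Gbp5 had risen 12.3-fold in WT cells (log2 3.62, SE 0.19, adjusted p = 3.986e-08 by limma) and 7.47-fold in KO cells (log2 2.90, SE 0.19, adjusted p = 4.113e-07 by limma). Of the 6 windows at hand, its own alone held a κB motif, which 48.7% of all genes had. The part of that motif in this rise was not tested. Gbp2, which coats vacuoles of bacteria and of Toxoplasma, was higher by 0.64 in WT cells (SE 0.14, adjusted p = 0.01099 by limma), and in KO cells its change of 0.28 was not called (adjusted p = 0.3467 by limma). The change of Gbp3 was 0.54 in WT cells (adjusted p = 0.04558 by limma) and 0.20 in KO cells (adjusted p = 0.5928 by limma).

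Irgm1 went the other way. Its log2 level in WT cells was 11.22 and 10.97 before LPS and 10.24 and 10.05 at 1 h, and in KO cells 11.06 and 11.38 before and 10.31 and 10.701 after. The channels did not overlap within a genotype, and Irgm1 fell by 0.95 in WT cells (SE 0.17, adjusted p = 0.001956 by limma) and by 0.72 in KO cells (SE 0.17, adjusted p = 0.01635 by limma). A dimmer second probe of Irgm1 gave -0.73 and -0.45. Gm4841 fell by 0.65 in KO cells (SE 0.17, adjusted p = 0.03259 by limma), while in WT cells it dropped to a level not well above background, at least 1.29-fold below the unstimulated level (log2 change -0.43, adjusted p = 0.1793 by limma, and -1.69 with processed signals). The difference between genotypes in the 1 h response was called for 0 of 10 genes and 0% of all features, with 2 of 10 at an unadjusted p under 0.05 (Gbp2 and Gbp5, both rising less in KO cells, by 0.36 and 0.72) against 1.4% of all features. For Gbp5 the difference was -1.12 in replicate 1 and -0.31 in replicate 2. Of the calls at 1 h, those of Gbp5 in both genotypes and of Irgm1 in WT cells held in every alternative run. The call of Gbp2 was lost without unstimulated replicate 1, without either 1 h array and with processed signals, and that of Gbp3 was lost in most alternatives.

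**Figure D2:**
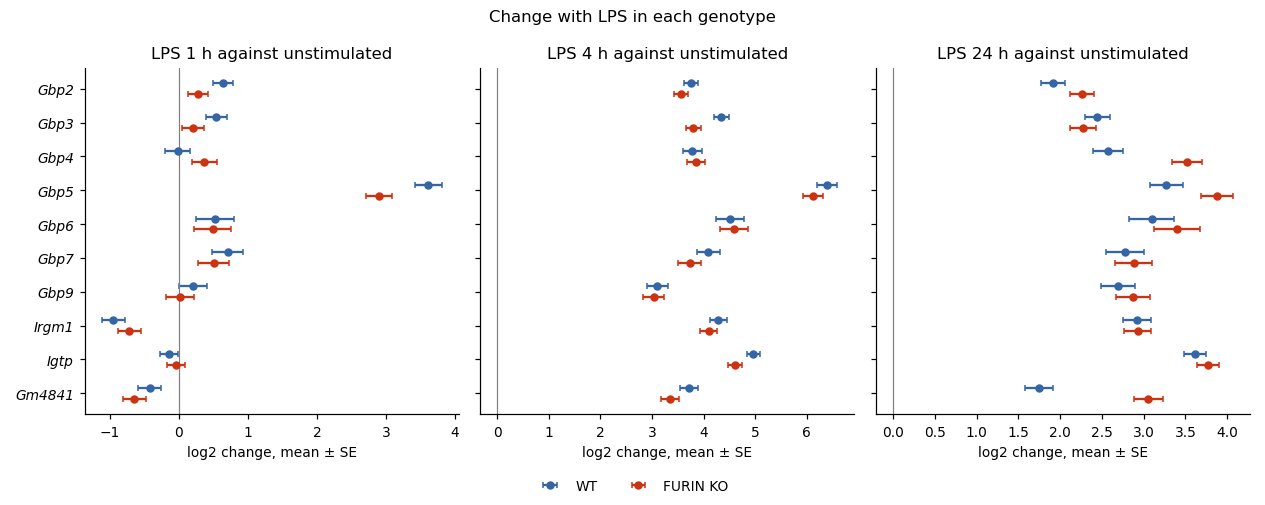
Log2 change from the unstimulated level after 1, 4 and 24 h of LPS (horizontal axis, one panel per time point) for each gene in WT (blue) and FURIN KO (red) cells. Points are the fitted means of 2 channels and bars the standard error; at 1 h Gbp5 stands apart at 3.62 and 2.90, and at 4 h all genes lie between 3.03 and 6.40.

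By 24 h the genes had come down from the 4 h level but were still above the unstimulated level. All 10 were higher than before LPS in WT cells and in KO cells, with median log2 changes of 2.73 and 2.99 (all features -0.0147 and -0.014), where 13.5% of all features rose in WT and 12.8% in KO cells. The 24 h channels are those of the ratios that were known when the family was chosen. In WT cells the rise ranged from 1.75 for Gm4841 to 3.61 for Igtp on the log2 scale, and in KO cells from 2.26 for Gbp2 to 3.88 for Gbp5. With processed signals the rise of Gm4841 in WT cells was 2.64, and Gbp2 was then the least raised at 2.05. Cell markers changed with LPS too. At 24 h the median log2 changes in WT and KO cells were -2.59 and -2.97 for large peritoneal macrophage markers. They were -1.59 and -1.38 for mast cell and -1.33 and -1.34 for macrophage markers, and between -0.82 and 0.21 for the other lists. At 4 h all list medians lay between -1.01 and 0.49. The part of these cells in the LPS changes was not tested.

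The descent differed in size between genes, and its mean was smaller in KO cells. In WT cells the 24 h level was 11.4% of the 4 h level for Gbp5, 25.5% for Gm4841, 26.8% for Gbp3, 27.9% for Gbp2, 43.3% for Gbp4 and 75.1% for Gbp9. In KO cells it was 20.95% for Gbp5, 81.5% for Gm4841, 34.7% for Gbp3, 40.7% for Gbp2, 79.5% for Gbp4 and 89.2% for Gbp9. Irgm1 kept 38.8% in WT and 44.4% in KO cells, Igtp 39.1% and 55.6%, Gbp6 37.5% and 43.9%, and Gbp7 40.0% and 55.4%. The mean share kept was thus higher in KO cells for all 10 genes. This is a description with no test, since 24 h ratios were known when the family was chosen. It restates that the mean KO/WT ratio was higher at 24 h than at 4 h, and no share over all features is given. The genes most like the family, named below, went the same way, with Ifit2 at 0.26 and 1.12.

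**Figure D3:**
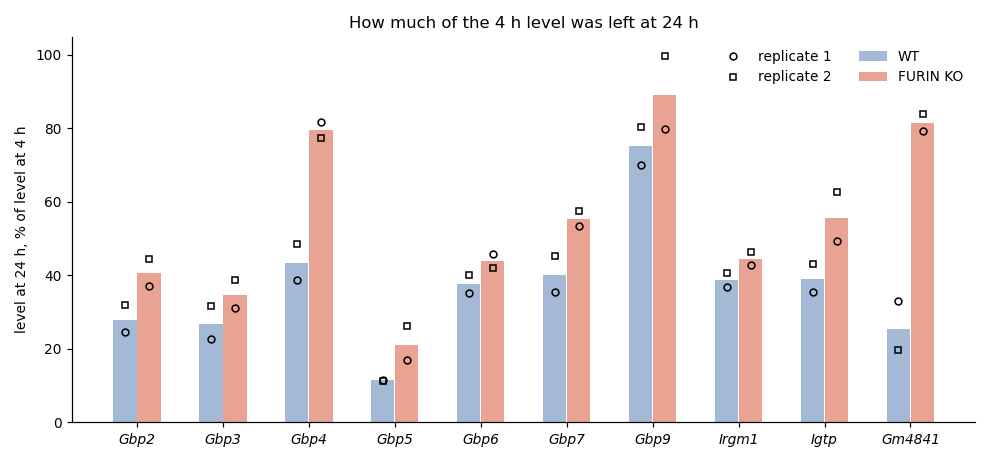
Level at 24 h of LPS as a percentage of the level at 4 h (vertical axis, from 0) for each gene in WT (blue) and FURIN KO (red) cells. Bars are geometric means of 2 replicates, shown as circles and squares; Gm4841 kept 25.5% in WT and 81.5% in KO cells, and Gbp9 kept most in both.

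KO against WT on the same array was the direct comparison. At 24 h the mean ratio was above 0 for all 10 genes, with a median log2 KO/WT of 0.59 (all features 0.0038). Both arrays lay above 0 for 9 of the 10, where 23.2% of all features did, and 2 of the 10 passed the adjusted threshold in the higher direction, where 0.0135% of all features did. Nothing is read from these counts, as the 24 h ratios were known.

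Gm4841 had log2 KO/WT ratios of 2.11 and 2.47 at 24 h (mean 2.29, or 4.89-fold, SE 0.18). Its levels were 10.82 and 10.87 in KO and 8.71 and 8.39 in WT channels, so the genotypes were apart on both arrays. Gbp4, a GBP of the cluster that also holds Gbp6 and Gbp9, had ratios of 1.60 and 1.28 (mean 1.44, or 2.72-fold, SE 0.15), with KO levels of 12.07 and 12.10 and WT levels of 10.47 and 10.83. Gbp5 had ratios of 0.74 and 1.41 (mean 1.08, or 2.11-fold, SE 0.20), which lay far apart. The other 7 means ran from 0.13 for Irgm1, whose arrays gave -0.06 and 0.32, to 0.68 for Gbp9. Marker sums moved at 24 h too. The summed intensity of the B cell markers was between 38600 and 40160 in WT and between 42320 and 48410 in KO channels, and that of the 4 mast cell markers between 1351 and 2233 in WT and between 2658 and 2686 in KO channels. The macrophage sum, which includes Lyz2, was between 252400 and 270100 in WT and between 160900 and 180600 in KO channels. Its lower level lay in Lyz2 (mean log2 KO/WT -1.73), Cd14 (-0.82) and Csf1r (-0.53), while the median over the 7 genes was -0.03. The median over the mast cell markers was 0.47, with Cpa3 highest. With the replicate number as a block, Cpa3 was called higher (adjusted p = 0.00658), and Csf1r (adjusted p = 0.022) and the dendritic cell gene Itgax (adjusted p = 0.0124) lower, none of which was called without it. The sums of 3 further lists did not overlap between the genotypes either, and the gene that moved most was Itgax for dendritic cells (-0.65, list median 0.07), Icam2 for large peritoneal macrophages (0.33, list median 0.10, with Gata6 at -0.26) and Dcn for stromal cells (0.45, list median 0.05). The part of these cells in the ratios was not tested.

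**Figure D4:**
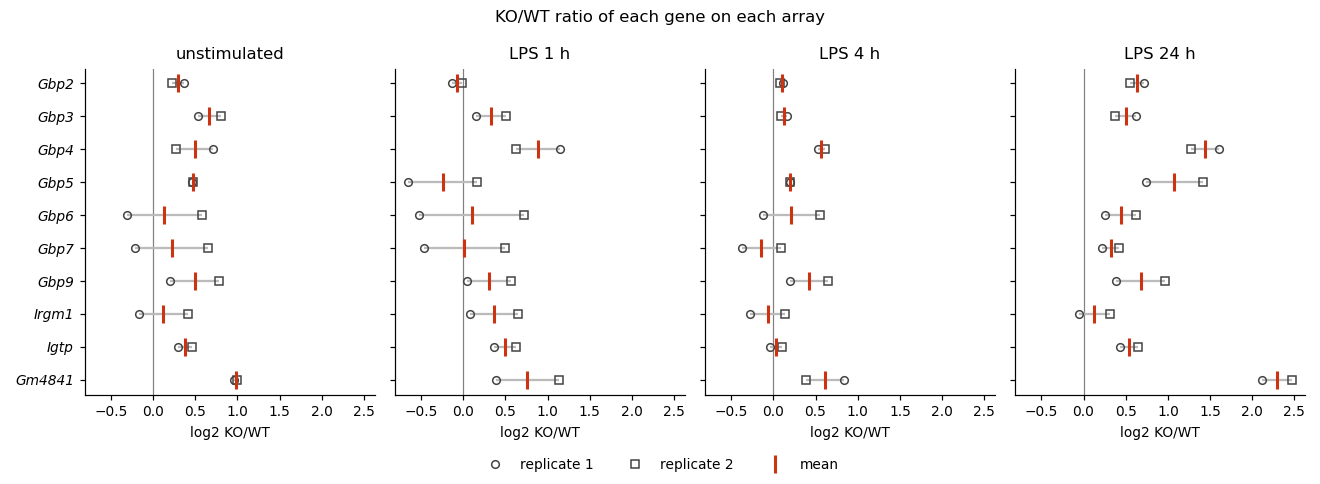
Log2 KO/WT ratio of each gene (horizontal axis) on each array at the 4 time points (panels). Open circles and squares are replicates 1 and 2 and red bars their mean; at 24 h all genes but Irgm1 lie to the right of 0 on both arrays, Gm4841 at 2.11 and 2.47.

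At the other time points no member was called by limma without the replicate number as a block. That number is also the dye orientation, and the mean ratios were the same under both fits. The block takes the difference between replicates that the time points share out of the spread. A blocked p-value therefore does not measure that difference. Before LPS all 10 mean ratios were above 0, with a median of 0.43 (all features 0.0005), and 7 of 10 genes were above 0 on both arrays, against 23.8% of all features. No feature at all passed the adjusted threshold in the higher direction (0%), and at an unadjusted p under 0.05 there were 7 of the 10 genes, against 5.75% of all features. Gm4841 led with ratios of 0.96 and 1.00 (mean 0.98, SE 0.18, adjusted p = 0.1957 by limma), from KO levels of 7.76 and 7.82 and WT levels of 6.79 and 6.82. With the processed signals of the scanner software its mean ratio was 1.89. Gbp3 followed with 0.53 and 0.81 (mean 0.67, SE 0.12, adjusted p = 0.1827 by limma). With the block, limma called 3 of the 10 genes higher, namely Gm4841 (adjusted p = 0.01782), Gbp3 (adjusted p = 0.0198) and Gbp9 (adjusted p = 0.02012), where 0.476% of all features were called higher. The ratios of Gbp9 were 0.21 and 0.79. The macrophage sum before LPS was 533100 to 642800 in WT and 449600 to 453500 in KO channels, with Lyz2 at a mean log2 KO/WT of -0.90 and a list median of 0.07. All 5 B cell markers and all 5 T cell markers had mean ratios above 0 (medians 0.21 and 0.30), and 3 of the B and 1 of the T cell markers were above 0 on both arrays. With the block, the macrophage marker Fcgr1 (adjusted p = 0.0173) and the T cell marker Cd3d (adjusted p = 0.0165) were called higher and Lyz2 lower (adjusted p = 0.00235), none of which was called without it. The part of these cells in the ratios before LPS was not tested. The members shared their arrays and moved together, so these counts are not 10 separate observations.

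At 1 h the median ratio was 0.32 (all features -0.0042), with 6 of 10 genes above 0 on both arrays against 23.5% of all features and again no call (0%). The median was 0.59 without replicate 1 of the 1 h arrays and 0.061 without replicate 2. Unadjusted p-values were under 0.05 for 4 of 10 genes, against 5.46% of all features. All 5 B cell markers had mean ratios above 0 at 1 h as well (median 0.44, 4 of 5 at an unadjusted p under 0.05), with sums of 61640 to 82390 in WT and 93260 to 102500 in KO channels. All 5 T cell markers had mean ratios above 0 too, with a median of 0.64, but only 2 of the 5, Cd3d (2.05 and 0.30) and Cd3g (1.35 and 0.24), were above 0 on both arrays. With the block, both were called higher (adjusted p = 0.00347 for Cd3d and 0.0194 for Cd3g). The macrophage sum was 557100 to 729500 in WT and 444700 to 481100 in KO channels, with Lyz2 at -0.98 (adjusted p = 0.206 by limma, and 0.00538 with the block) and a list median of -0.12. Sums were higher in KO channels for mast cell (8194 to 10230, WT 7749 to 7917) and NK markers (2705 to 2760, WT 2454 to 2668). That of the neutrophil markers was lower (2128 to 2177, WT 2888 to 3097). The part of these cells in the ratios at 1 h was not tested. Gbp4 had ratios of 1.14 and 0.62 (mean 0.88, SE 0.15, adjusted p = 0.3935 by limma) and Igtp 0.36 and 0.62 (mean 0.49, SE 0.11, adjusted p = 0.521 by limma). With the block both were called (adjusted p = 0.01173 for Gbp4 and 0.03088 for Igtp), where 0.273% of all features were called higher. For Gm4841 the WT channel was not well above background on either array, and KO cells were at least 1.64-fold higher (adjusted p = 0.5739 by limma). With processed signals this ratio of Gm4841 was 2.21 on the log2 scale, against the same dim WT channels, so only the bound is read. Gbp2, Gbp5, Gbp6 and Gbp7 had means between -0.25 and 0.10. The arrays gave opposite signs for Gbp5 (-0.65 and 0.16), Gbp6 (-0.52 and 0.72) and Gbp7 (-0.47 and 0.49), so each direction turned without one of the 1 h arrays (replicate 1 for Gbp5, replicate 2 for Gbp6 and Gbp7).

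At 4 h, at the peak of induction, the median ratio was 0.16 (all features -0.0008), with 6 of 10 genes above 0 on both arrays against 22.1%, and 0 of 10 called where 0.00812% of all features were called higher. At an unadjusted p under 0.05 there were 2 of 10, against 4.31% of all features, namely Gm4841 (0.84 and 0.39, mean 0.61) and Gbp4 (0.52 and 0.61, mean 0.57). Gbp2, Gbp3, Igtp and Irgm1 lay between -0.07 and 0.13. The methods' t-test called 0 of 10 at each of these time points after adjustment, and 2, 2 and 1 of 10 at an unadjusted p under 0.05. With the block it was 0 of 10 as well, where 0.33% of all features were called higher. The median ratio of the B cell markers was -0.20 and that of the T cell markers -0.01. Sums were lower in KO for stromal (920.9 to 1118, WT 1160 to 1350), dendritic cell (4861 to 5494, WT 5698 to 6055) and eosinophil markers (334.1 to 365.3, WT 371.8 to 378.5). The other sums overlapped. With the block, Lyz2, Csf1r (adjusted p = 0.0223) and Col1a2 (adjusted p = 0.0385) were called lower. The part of these cells was not tested.

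In the gene table Gm4841 lies beside Gm4951, F830016B08Rik and Iigp1, which are interferon-inducible GTPases of the same group. Iigp1 was added after its values were seen. At 24 h their log2 KO/WT ratios were 0.46 and 1.05 for Gm4951, 1.00 and 1.57 for F830016B08Rik and 0.41 and 1.53 for Iigp1, all above 0. Before LPS F830016B08Rik was not well above background in 1 KO and 1 WT channel, and no ratio is given. The Iigp1 ratios before LPS were -0.03 and 0.21, and a dimmer probe of Iigp1 gave a mean of 0.45 against 0.09 for the probe used. At 24 h these means were 1.06 and 0.97. How far the probes of such similar genes bind each other's transcripts was not tested.

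Across the 16 channels the members followed one another, with Pearson's r between 0.727 (Gbp5 with Irgm1) and 0.996 over the 45 pairs and a median of 0.954. The channels share arrays and the time course, so this is a description. Of 5628 other named genes that were bright and variable enough, the 10 most like the mean member profile were Ifit2 (r = 0.9958), Nmi, Gvin1, Nlrc5, Gm18852, Ifi47, Herc6, Cmpk2, Tgtp1 and Ifi35 (r = 0.9903). Ifit2, an interferon-induced antiviral protein that was most alike, changed by 7.18 in WT and 6.93 in KO cells at 4 h on the log2 scale and had a mean log2 KO/WT of 1.12 at 24 h. Nlrc5, which drives MHC class I genes, changed by 3.52 and 3.44 and had 0.64. The mean ratios of the other 8 genes at 24 h ran from 0.08 for Ifi35 to 0.56 for Ifi47. Gvin1, Ifi47 and Tgtp1 are themselves interferon-induced GTPases.

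Most other genes of the family rose at 4 h as well. Of 21 further GBP, IRG and very large GTPase genes, 18 were tested, and 14 rose and 2 fell at 4 h in each genotype, where 19.3% of all features fell in WT and 19.7% in KO cells. At 1 h, 1 rose and 4 fell in WT cells, where 3.37% of all features rose and 5.19% fell, and 1 rose and 5 fell in KO cells, where 3.08% rose and 4.46% fell. At 24 h 11 rose and 1 fell in WT cells, where 13.5% of all features rose and 16.9% fell, and 13 rose and 2 fell in KO cells, where 12.8% rose and 15.9% fell. Irgm2, a regulatory IRG, changed by 4.06 in WT and 3.68 in KO cells at 4 h and was named after its values were seen. None of the 18 had a KO/WT ratio that was called by limma without the block at any time point, and at an unadjusted p under 0.05 there were 5 before LPS, 5 at 1 h, 2 at 4 h and 11 at 24 h, or 27.8%, 27.8%, 11.1% and 61.1%. Over all features these shares were 5.75%, 5.46%, 4.31% and 3.42%. With the block, 4 of the 18 were called higher before LPS (Gbp2b, Ifi47, Tgtp2 and Gvin1), 2 at 1 h (Ifi47 and Tgtp2), 1 at 4 h (F830016B08Rik) and 5 at 24 h (Iigp1, Ifi47, Tgtp1, Gm4951 and F830016B08Rik), where 0.287% of all features were called higher at 24 h. Tgtp2, an interferon-induced GTPase that is near-identical to Tgtp1, had ratios of 1.62 and 0.95 before LPS. Its KO levels were 10.82 and 11.07 and its WT levels 9.20 and 10.12. At 4 h its ratios were -0.02 and 0.27, and at 24 h they were 0.67 and 1.10. A dimmer probe of Tgtp2 gave mean ratios of 0.06 before LPS and 0.42 at 24 h, against 1.28 and 0.89 for the probe used. Gbp2b, also known as Gbp1, differed from the other chromosome 3 GBPs. Its log2 change at 4 h was -0.09 in WT cells and -0.92 in KO cells, and its KO/WT ratios were 0.60 and 1.63 before LPS.

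The interferons themselves were examined next. Ifnb1, which encodes interferon-β, was not well above background before LPS in either genotype and was at least 104-fold higher at 1 h in WT cells and at least 93.4-fold higher in KO cells, ahead of most of the family. At 4 h it was at least 116-fold and 102-fold higher, and at 24 h at least 2.36-fold and 3.88-fold. Its log2 KO/WT ratios were -0.50 and 0.32 at 1 h, then 0.10 and -0.40 at 4 h, then 0.79 and 0.63 at 24 h. The list of ligands also holds Il12a and Il18, cytokines that act on the cells that make interferon-γ. All 7 measured genes of the list (8 listed) rose at 4 h in both genotypes, where 15.5% of all features rose in WT and 16.3% in KO cells, and none of the 7 was called between the genotypes at any time without the block.

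Ifng, which encodes interferon-γ, was not well above background before LPS in KO cells. In these cells it was at least 7.86-fold higher at 4 h and at least 54.6-fold higher at 24 h. In WT cells its log2 change was 2.68 at 4 h (adjusted p = 4.24e-05 by limma) and 3.72 at 24 h. The WT channel of replicate 2 before LPS was not well above background. Its log2 level was 9.12 and 8.97 after 4 h, then 9.40 and 10.76 after 24 h in WT cells, and 8.89 and 10.09 after 4 h, then 12.31 and 12.28 after 24 h in KO cells. At 24 h the KO channels were both above the WT channels, with log2 KO/WT ratios of 2.90 and 1.52, which were not called (adjusted p = 0.136 by limma) except with the block (adjusted p = 0.00912). Markers of the cells that make it most were read alongside. The summed intensity of the 5 T cell markers at 24 h was between 3722 and 5279 in WT and between 4912 and 5502 in KO channels, and all 5 had mean log2 KO/WT ratios above 0 (median 0.17, 1 of 5 above 0 on both arrays). Cd3d had ratios of 1.38 and -0.03, which were called higher with the block (adjusted p = 0.00902) and not without it. The sum of the 4 NK markers was between 1666 and 1813 in WT and between 1602 and 1820 in KO channels, and the NK-defining genes Ncr1 and Klrb1c were not well above background in any channel. Gzma, a granzyme of NK and T cells on the same list, was well above background in 7 KO and 4 WT channels, and its ratios were above 0 on all 8 arrays, with 0.65 and 0.35 at 24 h. Some of its earlier ratios are thus against dim WT channels. At 24 h Nkg7, the remaining gene of the list, had a mean ratio of -0.08, or 0.37 with a dimmer probe. The list median was -0.06, and 2 of the 4 genes were below 0 on both arrays. The part of these cells in the result was not tested.

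**Figure D5:**
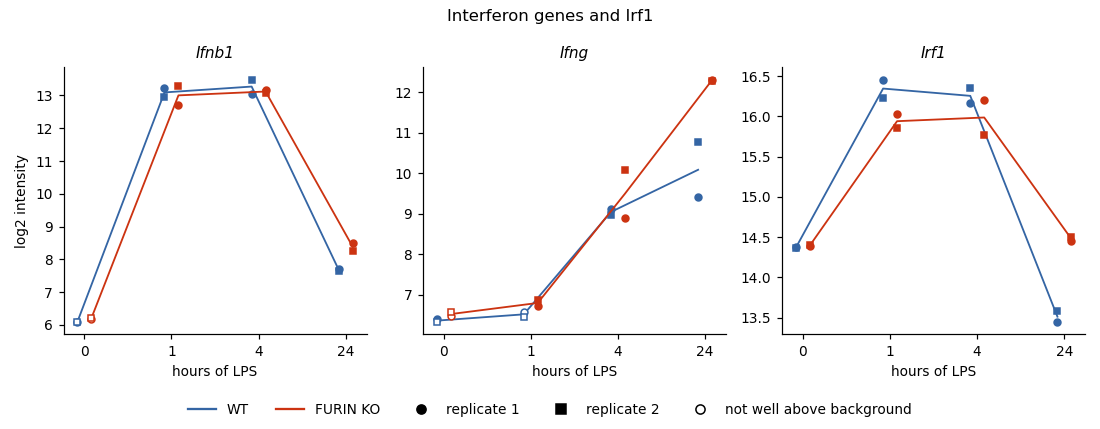
Log2 intensity of Ifnb1, Ifng and Irf1 (vertical axes, one scale per gene) against hours of LPS in WT (blue) and FURIN KO (red) channels. Symbols are replicates, open where not well above background, and lines join means; Ifnb1 is up by 1 h in both genotypes, and at 24 h the KO points of Ifng (12.31 and 12.28) and Irf1 (14.45 and 14.50) lie above the WT points.

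Irf1, an interferon-induced factor that acts on ISRE-like motifs, rose by 1.98 in WT and 1.54 in KO cells at 1 h on the log2 scale. At 24 h it was 13.44 and 13.58 in WT and 14.45 and 14.50 in KO channels, which do not overlap, with log2 KO/WT ratios of 1.01 and 0.92 (adjusted p = 0.0901 by limma, and 0.00482 with the block). Before LPS its ratios were 0.01 and 0.04. By 24 h Irf1 had fallen below the unstimulated level in WT cells (log2 change -0.86, adjusted p = 0.000202 by limma), while in KO cells its change was 0.08 (adjusted p = 0.76 by limma). A much dimmer probe of Irf1 gave a mean KO/WT ratio of 0.16 at 24 h and a change of 0.09 in WT cells. Irf2, the factor with the largest mean ratio over all arrays, had 0.61 and 0.44 before LPS (adjusted p = 0.183 by limma, and 0.0242 with the block) and 0.29 and 0.28 at 24 h. Batf2, another interferon-induced factor, had 0.82 and 0.65 at 24 h (adjusted p = 0.182 by limma, and 0.0155 with the block), and Irf7 -0.17 and 0.22. Before LPS Irf7 had a mean ratio of 0.63 (adjusted p = 0.577 by limma, and 0.0192 with the block). Of the 10 factors, 8 rose at 4 h in each genotype, where 15.5% of all features rose in WT and 16.3% in KO cells. None was called between the genotypes without the block, and with it 2 were called higher before LPS and 2 at 24 h, where 0.476% and 0.287% of all features were.

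No receptor or kinase gene was called between genotypes, with or without the block. The 4 interferon receptor genes had mean log2 KO/WT ratios between -0.29 and 0.14 over all time points, and 3 of the 4 fell at 4 h of LPS in both genotypes, where 19.3% of all features fell in WT and 19.7% in KO cells. Ifngr1, a chain of the interferon-γ receptor, was still lower at 24 h, with log2 changes of -1.91 in WT and -1.82 in KO cells. Jak2, one of the receptor-bound kinases, rose by 3.28 and 3.27 at 4 h. Tyk2, another of them, had ratios of -0.82 and 0 before LPS and -0.20 and -0.02 at 24 h. Socs1, an inhibitor of interferon signaling, rose by 5.67 in WT and 5.20 in KO cells at 4 h, and 4 of the 5 inhibitor genes rose at 4 h in each genotype, against 15.5% and 16.3% of all features. Usp18, which dampens the interferon-β receptor, was lower at 1 h by 0.88 in WT and 1.15 in KO cells and higher by 4.57 and 4.71 at 4 h. None of the 5 inhibitor genes was called between the genotypes in either fit. At an unadjusted p under 0.05 in the limma fit of KO/WT there were, before LPS and at 1, 4 and 24 h in turn, 0, 0, 1 and 2 of the 7 ligand genes, 1, 1, 1 and 0 of the 4 receptor genes, 1, 1, 0 and 0 of the 3 kinase genes, 3, 1, 0 and 5 of the 10 factors and 1, 0, 1 and 0 of the 5 inhibitor genes, against 5.75%, 5.46%, 4.31% and 3.42% of all features.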

How the data were processed

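RNA of FURIN KO and WT peritoneal macrophages was hybridized on 8 Agilent 2-colour arrays. Spot intensities and flags are as the authors deposited them from Agilent Feature Extraction 10.7.3, with no normalization between arrays. The log2 ratios (Cy5 over Cy3) that the authors deposited served only as an alternative, and the direction of each ratio was taken from the dye labels. Time points were taken from the sample titles, since the growth protocol states 4 h for every sample. All arrays lie on 1 slide and come from 1 scan. The number of arrays limits the precision.

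Median intensities were corrected with normexp (offset 50), normalized by loess within and quantiles between arrays with limma 3.58.1 in R 4.3.3, and spots flagged as outliers were left out (6 of the member spots). Spots of a probe were averaged. Probes were named through RefSeq identifiers. Tests covered 36947 of 37018 genes and unnamed transcripts, those whose log2 intensity averaged 6 or more. KO/WT ratios were fitted with lmFit, one coefficient per time point (4 residual degrees of freedom), and LPS changes with the separate-channel analysis (statmod 1.5.0, within-spot correlation 0.0905, 36927 features), both with eBayes and Benjamini-Hochberg adjustment over all features at 0.05. Both fits were tested on simulated data.

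The members, the gene lists and the tests were chosen with earlier results of these data known. All 10 members are named. From each other list values are given for at most 4 genes chosen by rule, those with the largest mean KO/WT ratio over all arrays in absolute size among genes well above background on at least 4 arrays in both genotypes, plus Irf1, Ifnb1 and Ifng. Values are printed for some of these genes, and 1 further gene is not reported here. Irgm2 and the genes named for their calls under the replicate block were added after their values were seen, and Il12a and Il18 are named without values. Furin and the cell type markers serve as checks, and Iigp1 and the marker genes named singly were chosen after their values were seen. The genes most alike averaged at least 8 in log2 intensity and had a range of at least 1 between group means. A bound ("at least") sets the mean of the brighter group against the higher, on each dim array, of the lowest signal well above background and the gene's own signal, after loess and Aquantile normalization.

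Replicate numbers recur at each time point and mark the dye orientation. The difference between replicates in the KO/WT ratio recurred between time points (Pearson's r from 0.475 to 0.679 over 6 pairs of time points, across features, which are not independent). A blocked fit is therefore given beside the KO/WT calls that it changes. Alternatives covered the background correction, normalization, processed signals, the deposited log2 ratios, filters, the mean of all probes, the replicate block, a dye term, the methods' t-test (the Student's t-test that the study states for its arrays, on log2 intensities) and leaving out each array. Leaving out both 4 h arrays was chosen after seeing the data.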

Additional observations from a re-analysis of the deposited data

How the results depend on the processing

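At 4 h and 24 h of LPS all 10 members were called higher in both genotypes under every alternative run. At 0, 1 and 4 h the number called between KO and WT was 0 under every alternative but the replicate block (pairing the arrays by number, which is also dye), with 3 before LPS and 2 at 1 h. Over all features the block moved the calls from 0 to 393 before LPS, from 0 to 213 at 1 h, from 3 to 210 at 4 h and from 9 to 216 at 24 h, and in the difference of the 4 h response from 0 to 13, with no member among them. At 24 h, where 2 members passed, the count was 6 with the block, 1 with probes well above background in at least 4 channels, 1 with the mean of all probes, 1 without both 4 h arrays, 0 with processed signals and 0 with the methods' t-test, and between 0 and 2 when an array was left out. These 24 h counts are a description, since the ratios were known when the family was chosen. The cause was not tested.

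At 1 h of LPS the count in WT cells was 4, and it was 6 under the replicate block with a dye term (Gbp6 and Gbp7 added), 3 under the block alone, 2 with processed signals and between 2 and 4 when an array was left out. In KO cells it was 3, with 5 under the replicate block with a dye term and between 1 and 3 when an array was left out. In KO cells the fall of Irgm1 lost its call without unstimulated replicate 2 (-0.56), without 1 h replicate 1 (-0.52) and with the mean of all probes (-0.58). That of Gm4841 lost it without unstimulated replicate 1 (-0.68), unstimulated replicate 2 (-0.61) or 1 h replicate 1 (-0.46), without background correction (-0.58) and with processed signals (-1.38). Of 2120 single member values recomputed, 23 lost and 11 gained a call, and 41 that were called in neither turned sign. Of the 24 h ratios, that of Irgm1 turned to -0.06 without 24 h replicate 2. That of Gm4841 ranged from 2.10 to 2.64 and that of Gbp4 from 1.28 to 1.60. Before LPS the ratio of Gm4841 ranged from 0.95 to 1.89, and at 1 h, against dim WT channels, from 0.39 to 2.21. Each range of Gm4841 was highest with processed signals.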

Other observations

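Genes that work with the GTPases were also read. Of 20 listed partners in the inflammasome and in autophagy-like targeting, 19 were tested, and 9 rose and 8 fell at 4 h of LPS in each genotype. Of all features 15.5% rose and 19.3% fell in WT cells, and 16.3% rose and 19.7% fell in KO cells. Trim21, an interferon-induced ubiquitin ligase, rose by 3.28 in WT and 3.25 in KO cells at 4 h (log2). Gabarapl1, one of the ubiquitin-like proteins that mark vacuoles for IRGs, fell by 2.53 in WT and fell by 2.66 in KO cells, and Atg5, part of the machinery that attaches them, fell by 1.80 in WT and fell by 1.68 in KO cells. Sqstm1, an adaptor for ubiquitin-tagged cargo, changed by 1.16 and 1.02. None of the 19 was called between KO and WT at any time point by limma, with or without the replicate block, and at an unadjusted p under 0.05 there were 1 before LPS, 1 at 1 h, 2 at 4 h and 2 at 24 h, or 5.26%, 5.26%, 10.5% and 10.5%, against 5.75%, 5.46%, 4.31% and 3.42% of all features.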
